A study of Mus musculus with 15 samples.

Results

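MII oocytes of 6–8 m mice were compared with those of 8–10 w mice, with 3 samples in each group out of 15 in the series. The samples were chosen by the age in their titles, and the comparison covered all 333 genes listed in the oocyte count files, nearly all of them genes of splicing and RNA binding. Each sample was a pool of oocytes from C57BL/6 females that had been superovulated with PMSG and hCG, and the cumulus cells had been removed with hyaluronidase. The 8–10 w mice were virgin females and the 6–8 m mice were ex‐breeders, so age and breeding history cannot be told apart. The labels do not say whether the samples of a group came from separate animals, and p‐values therefore measure only the spread between these samples. Oocytes of 10–12 m ex‐breeders (3 samples) and 2‐cell embryos of both ages (2 samples in each group, made by IVF) were used only for comparison.

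An MII oocyte is arrested at metaphase of the second meiotic division. Growing oocytes transcribe and accumulate mRNA, and transcription is silenced at the end of growth, so the mRNAs of an MII oocyte are a stored supply that is translated, deadenylated or degraded until the embryo begins its own transcription. Splicing joins exons in the nucleus. The U1, U2 and U4/U6.U5 snRNPs, each built on a ring of Sm or LSm proteins, assemble on the intron together with the Prp19 complex, while SR proteins, hnRNPs and other regulators, themselves controlled by kinases, select the splice sites. The libraries were made with Smart‐Seq2, in which oligo‐dT primes the poly(A) tail. The values are therefore levels of polyadenylated RNA, and the number of molecules and the length of their tails cannot be told apart. In pooled oocytes, RNA per oocyte and the make‐up of the pool cannot be told apart either.

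The library size, defined as reads on listed genes plus reads on no feature or on more than 1 feature, was 16679252, 14676140 and 19004938 for the 8–10 w oocytes and 16609142, 14450080 and 17472221 for the 6–8 m oocytes. The listed genes held 304425, 263866 and 347467 reads in the 8–10 w samples, and 302189, 265250 and 338078 in the 6–8 m samples. Their share of the library was 1.82% ± 0.0167 (SD, n = 3) in 8–10 w and 1.86% ± 0.0625 (SD, n = 3) in 6–8 m oocytes, and the groups overlapped (two‐sided exact permutation test, p = 0.3, adjusted p = 0.75 over 5 read shares; the smallest possible p is 0.1). Reads that did not align were 20.4% ± 0.926 of all reads in 8–10 w and 22.0% ± 0.934 in 6–8 m samples (n = 3 each, exact permutation test, p = 0.2). Each sample had reads on 319 to 323 listed genes. On the first principal component of the tested genes (31.8% of the variance), the third 8–10 w sample lay at −3.70, away from the other 8–10 w samples (−0.31 and −1.10), while the 6–8 m samples lay at 0.69, 1.99 and 2.42. On the second component (25.4%), the 8–10 w samples lay at −0.99, −1.13 and 1.77. The 6–8 m samples lay at −2.30, −0.40 and 3.05 there, so the third sample of each group was apart from the others. None of the 12 oocyte markers and none of the 12 cumulus or granulosa cell markers chosen to check the label is among the listed genes, so that the cell type could not be checked with them. Levels are given below as CPM, the read count of a gene scaled to the library size and to TMM, a factor that centres each sample on the bulk of the listed genes. These factors were 0.970, 0.967 and 0.960 in the 8–10 w samples and 1.02, 1.03 and 1.06 in the 6–8 m samples, so they separated the groups themselves. Without them the median log2 fold change moved from 0.023 to 0.13, a shift of 0.10, and the genes with a positive value went from 155 (53.1%) to 204 (69.9%) of those tested. A fold change is thus a change relative to the other listed genes.

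edgeR's quasi‐likelihood test covered the 292 genes with enough reads, and an adjusted p‐value below 0.05 was reached by 2 of them (0.685%). Both Rbm7 and Srsf3 fell in 6–8 m oocytes, and none rose. No gene also passed a log2 fold change of 1 in either direction. The number depended on single samples: it was 4, 4 and 0 without 8–10 w sample 1, 2 and 3 and 6, 1 and 11 without 6–8 m sample 1, 2 and 3. DESeq2, which was run on 329 genes without that limit on reads, gave 17. Without the limit edgeR gave 8 of 329 genes, so the 17 and the 2 differ in gene set as well as in test. At an unadjusted p‐value below 0.05 there were 46 genes (15.8%), 21 with a higher level (7.19%) and 25 with a lower level (8.56%). This split depended on the scaling, since library totals without TMM gave 51 higher and 8 lower. In 69 genes (23.6%) the 3 samples of one group did not overlap with those of the other, with 31 higher (10.6%) and 38 lower (13.0%), against 56 higher and 13 lower without TMM. The differences were small, and only 15 genes (5.14%) passed a log2 fold change of 0.5. None of these 15 had a mean level above 3.54 CPM, against a median of 22.3 CPM over the tested genes, and 11 were higher while 4 were lower. Without TMM 29 genes passed 0.5, 26 higher and 3 lower, with mean levels of up to 65.3 CPM. The plot of fold change against level shows this narrowing.

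**Figure D1:**
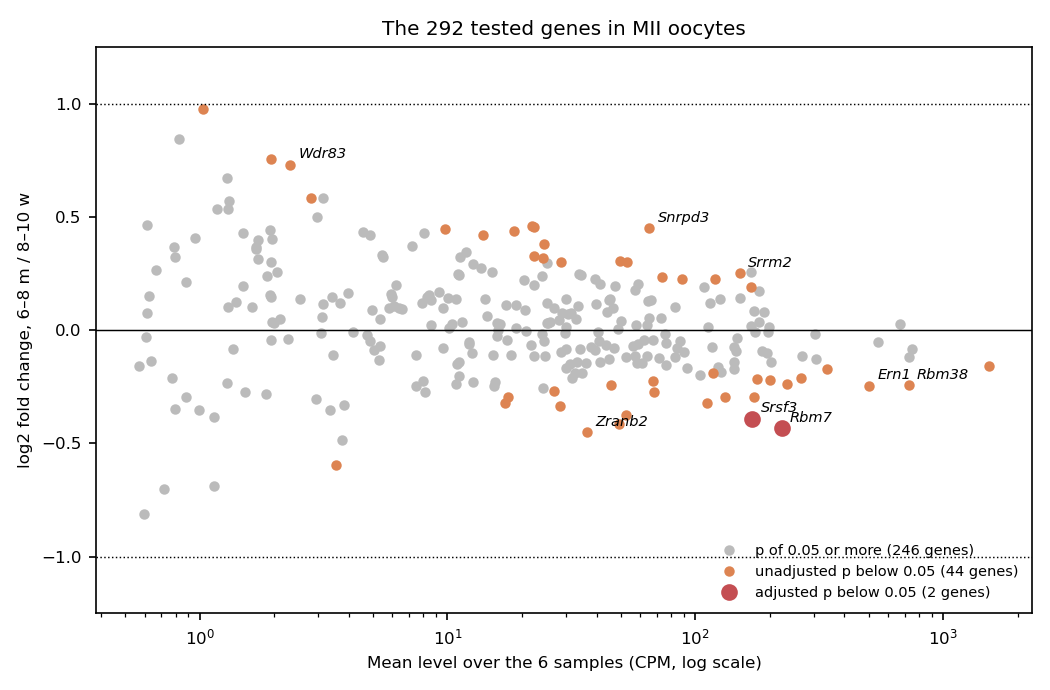
Log2 fold change (6–8 m / 8–10 w) of the 292 tested genes on the y axis against the mean level over the 6 samples (CPM, log scale) on the x axis, with a point for each gene and dotted lines at a log2 fold change of 1 in each direction. No gene lies beyond the dotted lines, the 15 genes beyond 0.5 all have a mean of at most 3.54 CPM, and the 2 genes with an adjusted p‐value below 0.05 (large red points, Rbm7 and Srsf3) lie below 0.

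Rbm7 encodes the RNA‐binding subunit of the NEXT complex, which brings short‐lived nuclear transcripts to the RNA exosome. The gene lies at chr9:48488701-48495299 on the minus strand (mm10). Its level was 246, 262 and 261 CPM in the 8–10 w samples and 178, 210 and 181 CPM in the 6–8 m samples. All 6–8 m samples were below all 8–10 w samples. The mean fell from 256 ± 9.17 to 190 ± 17.6 CPM (SD, n = 3 each), with a log2 fold change of −0.43 (SE 0.083, adjusted p = 0.00753 from edgeR). Relative to the median of all tested genes, the change was −0.46 both with TMM and without it. The adjusted p‐value was 0.0702 without TMM, when the fold change itself was −0.33, and 0.0501 without the third 8–10 w sample, so that the call was lost in both.

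Zcchc8, which encodes the scaffold of the same NEXT complex, had 306 ± 12.6 CPM in 8–10 w and 303 ± 6.38 CPM in 6–8 m oocytes (SD, n = 3 each; log2 fold change −0.015, adjusted p = 0.927 from edgeR). It was singled out after its values were seen.

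Srsf3 encodes an SR protein that binds exons during splicing and accompanies mRNA in export. The gene lies at chr17:29032628-29043373 on the plus strand. Its level was 182, 180 and 217 CPM in the 8–10 w samples and 153, 145 and 144 CPM in the 6–8 m samples. The groups did not overlap, and the third 8–10 w sample stood highest. The mean fell from 193 ± 20.6 to 147 ± 4.77 CPM (SD, n = 3 each), with a log2 fold change of −0.39 (SE 0.088, adjusted p = 0.0293 from edgeR). Without the third 8–10 w sample the value was −0.30 with an adjusted p of 0.207, without the second 6–8 m sample the adjusted p was 0.119, without TMM it was 0.0871, and blocking on the titles’ replicate number gave 0.0520, so that the call was lost in all 4.

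A further 7 genes had an adjusted p‐value between 0.05 and 0.1 and are given by their values, since they did not pass the test (9 genes in all below 0.1, or 3.08%). Of these 9 genes, 8 were lower in 6–8 m oocytes and 8 had groups that did not overlap. Zranb2, a zinc finger protein that influences the choice of splice sites, had 41.4, 39.3 and 45.7 CPM in 8–10 w samples and 28.8, 32.5 and 31.4 CPM in 6–8 m samples. Its log2 fold change was −0.45 (SE 0.12, adjusted p = 0.0769 from edgeR), and the groups did not overlap. The SR‐related proteins Tra2b and Srsf10, which bind exonic enhancers, were also lower in all 3 samples. Tra2b had 54.6, 59.8 and 63.9 CPM against 44.9, 47.4 and 45.3 CPM (log2 fold change −0.37, adjusted p = 0.0769), and its 6–8 m samples lay close together. Srsf10 had 128, 119 and 123 CPM against 103, 93.0 and 101 CPM (log2 fold change −0.32, adjusted p = 0.0769). Both groups of Srsf10 were tight and apart from each other.

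The RNA helicase Ddx5 had 185, 187 and 198 CPM in 8–10 w and 158, 160 and 146 CPM in 6–8 m samples (log2 fold change −0.29, adjusted p = 0.0769 from edgeR). The epithelial splicing regulator Esrp1 had 143, 146 and 146 CPM against 114, 127 and 115 CPM (log2 fold change −0.29, adjusted p = 0.0847). Ern1, the kinase and endonuclease IRE1 that cuts the intron out of Xbp1 mRNA in the unfolded protein response, was more abundant, with 562, 511 and 566 CPM against 471, 454 and 459 CPM (log2 fold change −0.24, adjusted p = 0.0769). In all 3 genes the lowest 8–10 w sample was above the highest 6–8 m sample. The single higher gene was Snrpd3, a protein of the Sm ring, with 60.1, 49.9 and 55.4 CPM in 8–10 w and 91.7, 76.6 and 57.8 CPM in 6–8 m samples (log2 fold change 0.45, adjusted p = 0.0812). The lowest 6–8 m sample (57.8) was below the highest 8–10 w sample (60.1), so the groups overlapped, and the value lay between 0.28 and 0.61 with a sample left out (adjusted p from 0.000589 without the third 6–8 m sample to 0.261). Snrpd3 also overlaps Gucd1 on the opposite strand, so its count may hold reads of Gucd1. Whether the counting used strand is not given in the sources used here.

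**Figure D2:**
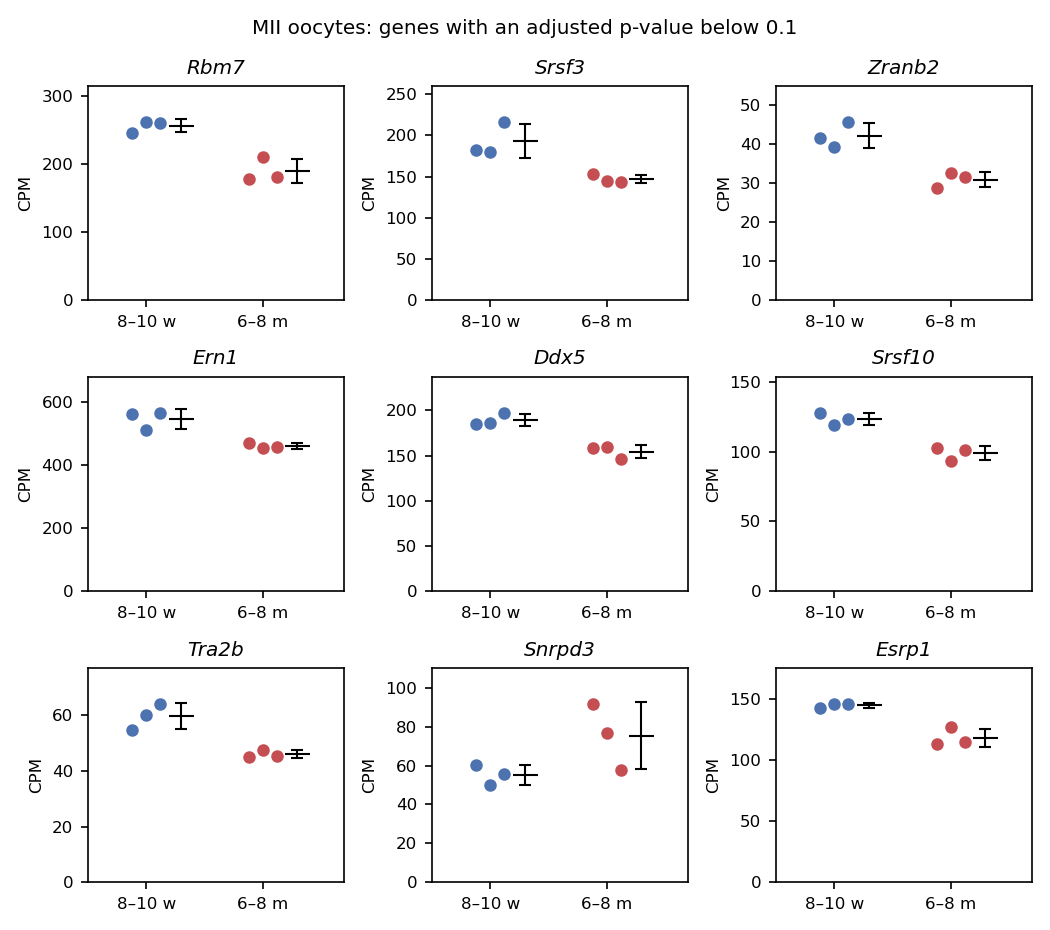
Level (CPM, y axis from 0) of the 9 genes with an adjusted p‐value below 0.1 in the 8–10 w (blue) and 6–8 m (red) samples, with a point for each sample and, beside it, the mean (horizontal mark) and SD (bar, n = 3). All 3 samples of 6–8 m lie below all 3 samples of 8–10 w in 8 of the genes, and the groups overlap in Snrpd3.

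Many stored mRNAs of oocytes carry cytoplasmic polyadenylation elements near the 3′ end, short U‐rich motifs bound by CPEB that govern the length of the poly(A) tail. The last 150 bases of the principal coding transcript of each gene (GENCODE vM21, mm10, sense strand only) were searched for TTTTAT and TTTTAAT, and a gene was counted if either was present. They were found in 88 of the 292 tested genes (30.1%), against 21.7% of all 21004 protein‐coding genes searched in the same way. Among the 9 genes above, Rbm7, Srsf10, Ddx5, Ern1 and Snrpd3 held a match, and Srsf3, Zranb2, Tra2b and Esrp1 held none in this window. The match nearest to the transcript end is shown for the genes that had one, with the motif in capitals, to show where these short motifs lie in the ends of the genes described above:
Rbm7 (chr9:48488711-48488735, minus strand): ctatgttccTTTTAATatattaaat
Srsf10 (chr4:135869776-135869799, plus strand): catgtaaatTTTTATtagtaacag
Ddx5 (chr11:106780484-106780507, minus strand): atgtggaccTTTTATtttgtaaat
Ern1 (chr11:106394708-106394731, minus strand): cttttacagTTTTATaattctgct
Snrpd3 (chr10:75537339-75537362, plus strand): tttggtttaTTTTATtgtattaat

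The Rbm7 motif ended 19 bases before the end of its transcript, the Snrpd3 motif 28 bases and the Ddx5 motif 138 bases before it. The 88 genes with a match had a median log2 fold change of −0.047, with 38 higher and 50 lower, and the 204 genes without one had a median of 0.045, with 117 higher and 87 lower. When TMM was left out the medians were 0.054 (56 higher and 32 lower) and 0.15 (148 and 56). The genes with a match were also more abundant (median of 30.1 against 16.0 CPM). Among genes above the median level, the values were −0.070 with a match (54 genes) and −0.017 without (92 genes). Among genes below it they were 0.0090 (34 genes) and 0.11 (112 genes). A match is a description of the sequence, and its part in the levels was not tested.

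The listed genes were then grouped by their place in the splicing machinery. The log2 fold changes of the groups, relative to the median of all tested genes (0.023), lay between −0.10 and 0.13 for the groups with at least 4 tested genes, and these relative values moved by at most 0.0027 without TMM. Among the regulators that select splice sites, the hnRNPs had a relative median of −0.094, with 12 genes higher and 17 lower (18 and 11 without TMM), and the median was 0.0038 without the third 6–8 m sample. At an unadjusted p‐value below 0.05, 3 of 29 were lower (Ddx5, Hnrnpc and Khsrp) and none higher, or 10.3% against 15.8% of all tested genes. Without TMM 3 were higher and 1 lower. Hnrnpc, which binds U tracts in introns, had 281, 288 and 290 CPM in 8–10 w and 248, 243 and 251 CPM in 6–8 m samples. The groups were narrow and did not overlap (log2 fold change −0.21, adjusted p = 0.16 from edgeR). The most abundant hnRNP for its length, Pcbp1, had a log2 fold change of 0.14 (adjusted p = 0.39).

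The other alternative splicing regulators had a relative median of −0.10, with 13 genes higher and 22 lower (19 and 16 without TMM), and the median was −0.043 without the third 8–10 w sample. Among the 35 genes, 7 were lower and 1 higher at an unadjusted p‐value below 0.05, or 22.9% against 15.8% of all tested genes, and 3 were lower and 1 higher without TMM. The group was drawn widely and also holds genes with other roles. Rbm7 of the NEXT complex, described above, is among the 7 lower genes and is the only one of the group with an adjusted p‐value below 0.05 from edgeR. The summed level of this group was 3789, 3764 and 3966 CPM in the 8–10 w samples and 3420, 3354 and 3552 CPM in the 6–8 m samples, and these did not overlap. The sums over all tested genes were apart in the same direction (18805, 18593 and 19047 against 17743, 17860 and 18319 CPM), and without TMM the sums of the group overlapped (3675, 3638 and 3805 against 3505, 3445 and 3750). Its most abundant gene, Wtap, held 1622 ± 48.7 and 1454 ± 84.8 CPM of the sums (SD, n = 3 each; log2 fold change −0.16, adjusted p = 0.17 from edgeR). Wtap and Mettl3 are subunits of the enzyme that writes N6‐methyladenosine. Mettl3 had 28.4, 30.0 and 30.3 CPM against 27.1, 23.4 and 23.1 CPM (log2 fold change −0.27, adjusted p = 0.278). The groups were apart in both genes, and neither passed the test. Mettl14, the partner of Mettl3, had a log2 fold change of −0.14 (adjusted p = 0.627). Per kilobase of exon, the most abundant listed gene was Rbm38, an RNA‐binding protein that controls mRNA stability and is induced by p53, at 253 CPM per kb. Its level was 781, 721 and 859 CPM in 8–10 w and 687, 592 and 718 CPM in 6–8 m samples, and the groups were apart by a small margin (log2 fold change −0.24, adjusted p = 0.113). Without TMM its log2 fold change was −0.14, and its groups overlapped. Fxr1, of the FMR1 family, was the gene of the group on the higher side, with a log2 fold change of 0.24 (adjusted p = 0.214).

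The SR and SR‐related proteins were split, with 3 genes higher and 3 lower at an unadjusted p‐value below 0.05 among 18 (33.3% against 15.8% of all tested genes). In 44.4% of them the groups did not overlap (4 higher and 4 lower), against 23.6% of all tested genes. Without TMM 5 were higher and 3 lower at that p‐value. The lower ones were Srsf3, Tra2b and Srsf10. The higher ones were Srrm2 and Son, the large proteins that organise nuclear speckles, and Sfswap. Srrm2 had 143, 143 and 127 CPM in 8–10 w and 170, 160 and 162 CPM in 6–8 m samples (log2 fold change 0.25, adjusted p = 0.16 from edgeR). The groups of Srrm2 did not overlap, and the gene overlaps Elob on the opposite strand. Sfswap had 13.9, 12.5 and 9.49 CPM against 14.6, 16.4 and 16.9 CPM (log2 fold change 0.42, adjusted p = 0.187). Rbm39, the most abundant of the group for its length, had samples far apart within both groups, with 168, 168 and 122 CPM against 137, 191 and 218 CPM (log2 fold change 0.25, adjusted p = 0.341), and its groups overlapped. Its value lay between 0.11 and 0.41 with a sample left out. Srsf5 did not differ beyond the spread (log2 fold change 0.13, SE 0.11).

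Kinases and phosphatases set the phosphorylation of SR proteins and hence their activity. Of the 11 genes tested, 4 were lower at an unadjusted p‐value below 0.05 and none was higher (36.4% against 15.8% of all tested genes), whereas without TMM none was lower and 1 was higher. These were Srpk2, Clk1 and Uhmk1, which are kinases, and Ppp4r2, a regulatory subunit of protein phosphatase 4. Their adjusted p‐values were between 0.187 and 0.278. Srpk2 had 184, 191 and 198 CPM in 8–10 w and 159, 164 and 172 CPM in 6–8 m samples (log2 fold change −0.21). The most abundant kinase, Srpk1, had 556 ± 18.3 and 537 ± 39.1 CPM (SD, n = 3 each), and its log2 fold change was −0.051 with TMM and 0.050 without it.

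Among the snRNPs, the relative median was 0.077 for U1, 0.028 for the Sm and LSm rings, −0.0016 for U2 and 0.056 for the U4/U6.U5 tri‐snRNP, and the values for the rings and U2 changed sign with a sample left out. At an unadjusted p‐value below 0.05, 1 of 12 U1 genes (8.33%) and 1 of 15 ring genes (6.67%) were higher and none lower. The share was 15.8% of all tested genes, and without TMM 4 U1 and 2 ring genes were higher and none lower. Snrnp70, the U1 protein that binds the U1 RNA, had 23.2, 19.0 and 13.1 CPM in 8–10 w and 25.0, 27.6 and 23.4 CPM in 6–8 m samples. The third 8–10 w sample was the lowest, and the lowest 6–8 m sample lay just above the highest 8–10 w sample (log2 fold change 0.46, adjusted p = 0.161 from edgeR). The value was 0.26 without that sample and 0.65 without the first 8–10 w sample. The tri‐snRNP had 5 genes higher and 2 lower at an unadjusted p‐value below 0.05 out of 22 (31.8% against 15.8% of all tested genes), and 5 and 1 without TMM. The higher ones were Txnl4b, Sart3, Zmat2, Usp39 and Prpf31, with log2 fold changes from 0.30 to 0.58. The lower ones were Snu13, which binds U4 RNA, and Snrnp27. Snu13 had 60.0, 53.6 and 54.9 CPM against 42.1, 51.3 and 33.5 CPM (log2 fold change −0.41, adjusted p = 0.113). Snrnp27, with 242, 250 and 273 CPM against 219, 221 and 209 CPM, was the most abundant gene of the tri‐snRNP (log2 fold change −0.24, adjusted p = 0.137). Both were apart between groups. The summed level of the tri‐snRNP genes depended on the scaling. It was 847 ± 6.07 CPM in 8–10 w and 815 ± 15.3 CPM in 6–8 m oocytes with TMM, and 818 ± 1.34 and 844 ± 21.7 CPM without it (SD, n = 3 each), and the groups did not overlap in either case. The sums over all tested genes moved in the same directions. They were 18815 ± 227 and 17974 ± 304 CPM with TMM, without overlap. Without TMM they were 18163 ± 167 and 18623 ± 625 CPM (SD, n = 3 each) and overlapped.

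In U2, Sf3a1 (77.3, 81.1 and 85.4 against 98.3, 94.9 and 92.3 CPM, log2 fold change 0.23, adjusted p = 0.214 from edgeR) and Rbm17 were higher and Sf3b1 lower at an unadjusted p‐value below 0.05, out of 24 (12.5% against 15.8% of all tested genes). When TMM was left out, 3 were higher and none lower, and Sf3b1 had a log2 fold change of −0.070. Sf3b1, the protein that holds the branch site, had 356, 355 and 367 CPM against 288, 317 and 351 CPM (log2 fold change −0.17, adjusted p = 0.278). Its groups were apart by little. The most abundant U2 gene for its length, Phf5a, had a log2 fold change of −0.035 with TMM and 0.068 without. In the Prp19 complex and the catalytic factors, Snw1, Ppwd1, Wdr83 and Rbm22 were higher and Rbmx2 and Cdc40 lower at the same threshold, out of 33 (18.2% against 15.8% of all tested genes), and 8 were higher and none lower without TMM. Wdr83 had a log2 fold change of 0.73 (SE 0.28, adjusted p = 0.187), from a level of only 1.73 ± 0.247 against 2.90 ± 0.481 CPM (SD, n = 3 each), and it overlaps Dhps and Wdr83os on the opposite strand. Syf2, the most abundant member for its length, had 320 ± 7.83 and 293 ± 10.4 CPM (SD, n = 3 each; log2 fold change −0.13, adjusted p = 0.366).

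The exon junction and export complexes, which mark spliced mRNA and carry it out of the nucleus, had a relative median of 0.070 (0.20 without the third 8–10 w and 0.020 without the third 6–8 m sample), with 3 genes higher (Srrm1, Thoc5 and Thoc6) and 1 lower (Thoc1) at an unadjusted p‐value below 0.05 out of 20 (20% against 15.8% of all tested genes). Without TMM 5 were higher and none lower. Thoc1, Thoc5 and Thoc6 belong to the same THO complex. Thoc6 had 24.5, 19.7 and 12.4 CPM in 8–10 w and 21.5, 27.6 and 28.4 CPM in 6–8 m samples, and the groups overlapped (log2 fold change 0.46, adjusted p = 0.194 from edgeR). It was 0.22 without the third and 0.68 without the first 8–10 w sample. Thoc1 had 19.4, 17.9 and 19.4 CPM against 16.2, 12.7 and 16.5 CPM (log2 fold change −0.32, adjusted p = 0.278). Thoc5, close to the detection limit at 0.694 ± 0.0678 and 1.37 ± 0.412 CPM (SD, n = 3 each), had the largest positive value of all tested genes, 0.98 (SE 0.40, adjusted p = 0.214), or 1.08 without TMM (adjusted p = 0.146). Magoh, a core subunit of the junction complex, had 167 ± 1.90 and 177 ± 25.6 CPM (log2 fold change 0.083).

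Of the SMN complex that loads Sm rings on snRNAs, Gemin6 had 31.3, 36.1 and 28.0 CPM in 8–10 w and 22.9, 26.9 and 25.8 CPM in 6–8 m samples (log2 fold change −0.33, adjusted p = 0.187 from edgeR), with the groups apart. Of the 11 tested genes of snRNP assembly, 6 were higher and 5 lower. An unadjusted p‐value below 0.05 was reached by 1 of them (9.09%, lower), against 15.8% of all tested genes. Without TMM 1 was higher at that p‐value, Gemin5 (log2 fold change 0.77), and none lower. The 10 tested genes of stored‐mRNA binding and deadenylation had none at an unadjusted p‐value below 0.05, against 15.8% of all tested genes. G3bp2, the most abundant of them for its length, had 663 ± 28.7 and 674 ± 15.3 CPM (SD, n = 3 each; log2 fold change 0.026), and the level of Lin28a also overlapped (log2 fold change 0.036). For the minor spliceosome only 4 of 8 listed genes had enough reads to test, and all 4 had a positive fold change (53.1% of all tested genes had one, or 69.9% without TMM). None had an unadjusted p‐value below 0.05, against 15.8% of all tested genes. Without TMM 2 of them (Rnpc3 and Zrsr2) had one, against 20.2%. Puf60, Khdrbs1, Ptbp1, Slu7, Srsf5, Hnrnpm and Sf1 had log2 fold changes from −0.25 (Khdrbs1) to 0.13 (Sf1), overlapping groups and adjusted p‐values of at least 0.397. In the GENCODE annotation Snw1 (Slirp), Ppwd1 (Cenpk), Thoc1 (Usp14), Thoc6 (Hcfc1r1 and Bicdl2), Fxr1 (Dnajc19), Mettl3 (Tox4), Srpk2 (Kmt2e), Son (Donson) and Ptbp1 (Plppr3) also overlap the gene in brackets on the opposite strand, and their values carry the limit given for Snrpd3. Rbm38, Esrp1, Snrnp70, Sart3, Uhmk1, Khsrp, Prpf31, Pcbp1, Sf1, G3bp2 and Lin28a overlap unnamed or predicted genes there, and Hnrnpm overlaps March2 on its own strand.

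**Figure D3:**
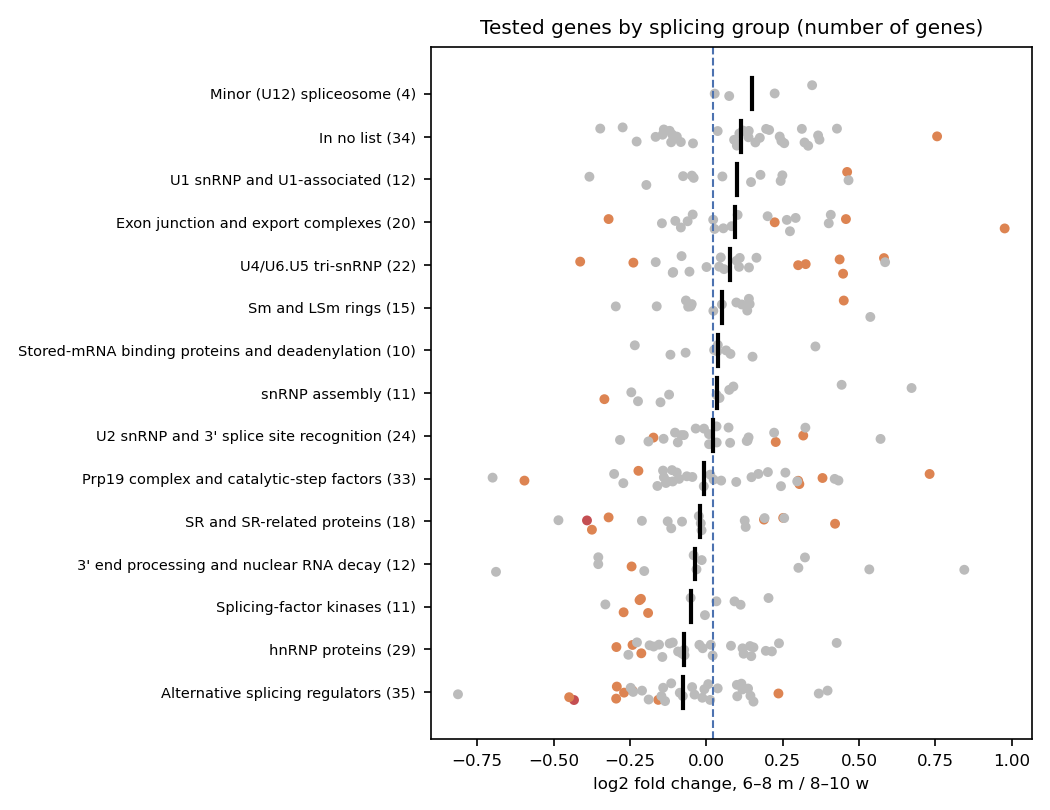
Log2 fold change with TMM (6–8 m / 8–10 w, x axis) of the tested genes in each splicing group (y axis, number of genes in parentheses), with grey points for genes with an unadjusted p‐value of 0.05 or more, orange below 0.05 and red for an adjusted p‐value below 0.05. Black bars mark group medians and the dashed line the median of all tested genes (0.023), and the vertical place of a point within its row carries no value. All lower orange points of the kinases lie between −0.27 and −0.19, and the SR proteins have orange or red points on both sides.

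The fold change varied with the level of a gene. Across the 292 genes, which are not independent replicates and share their libraries, the fold change had a Pearson r of −0.249 and a Spearman rho of −0.27 with the log2 mean CPM. Among the 98 genes with the highest level (at least 41.4 CPM), 8 were higher and 19 lower at an unadjusted p‐value below 0.05, and the median was −0.063. Among the 97 with the lowest level (at most 8.58 CPM) the numbers were 4 and 1, and the median was 0.12. When TMM was left out, the numbers were 18 and 7 with a median of 0.039 for the highest and 11 and 0 with a median of 0.22 for the lowest level, and r was −0.248. The median standard error was 0.298 among the lowest and 0.0989 among the highest. The fold change was only weakly related to exon length (r = −0.109, rho = −0.0937).

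In the 10–12 m oocytes, compared with the same 8–10 w samples, Rbm7 had 196, 203 and 188 CPM and a log2 fold change of −0.40 (adjusted p = 0.00741 from edgeR), and Srsf3 had −0.35 (adjusted p = 0.102). Ddx5 (−0.36), Srsf10 (−0.32), Esrp1 (−0.43) and Snu13 (−0.69) had adjusted p‐values below 0.05 there, when 4.10% of the 293 tested genes had one. Rbm38 had a log2 fold change of 0.04 there. These values share the 8–10 w samples with the comparison above and are not independent of it.

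In the 2‐cell embryos of both ages, which are separate samples counted in another way, edgeR gave none of 13142 genes an adjusted p‐value below 0.05, and 729 (5.55%) had an unadjusted p‐value below 0.05. Among the listed genes this was 14 of 310 (4.52%). Rbm7 had 77.7 and 101 FPM (fragments scaled to the library total and TMM) in the 8–10 w embryos and 104 and 107 in the 6–8 m embryos (log2 fold change 0.24, SE 0.21), and Srsf3 had 71.8 and 70.9 against 95.8 and 74.2 (log2 fold change 0.25). For both genes the longest transcript, which was the one counted, is a non‐coding variant, which had 1236 and 1343 against 2120 and 1563 fragments for Rbm7 and 1142 and 939 against 1944 and 1079 for Srsf3. The coding transcript had 1234 and 1341 against 2108 and 1563 fragments for Rbm7, and 1019 and 854 against 1781 and 995 for Srsf3, before any scaling. Of the 288 genes tested at both stages, 133 had the same direction, with r = 0.0242 and rho = 0.0296 across genes. Of the 46 genes with an unadjusted p‐value below 0.05 in oocytes, 23 had the same direction in embryos, among them Tra2b with −0.50 (unadjusted p = 0.020). The difference between the stages itself was tested with an interaction term. None of 314 genes had an adjusted p‐value below 0.05, 40 (12.7%) had an unadjusted one below 0.05, and the smallest adjusted value was 0.0691 for Rbm7 (interaction −0.82, SE 0.17). The 8 genes below 0.1 (2.55%) were Rbm7, Srsf3, Snrnp27, Lsm1, Srpk2, Zcchc8, Ern1 and Gemin6, each with a lower value in oocytes than in embryos. The TMM factors of this joint fit differ from those of the separate fits, and its interaction values lay below the difference of the stage fold changes in all 288 shared genes, by a median of 0.141 (−0.82 against −0.68 for Rbm7). The separate fits gave a lower value in oocytes for the same 8 genes. The split of the 40 genes was 34 lower and 6 higher, and without TMM it was 7 lower and 37 higher, with an interaction of −0.57 and an adjusted p of 0.227 for Rbm7, so that the direction across genes depended on the scaling. The number below 0.05 was 13 when the second 6–8 m embryo sample was left out and 1 when the second 8–10 w embryo sample was. Each of these fits has a lone embryo sample in that group, which is assumed to vary like the other groups. The embryos were processed in separate experiments, and the assignment of samples to experiments was not given in the sources used here. With the replicate number of the embryo samples as a block, an alternative chosen after the data were seen, the 2‐cell comparison again had none and the interaction had 7 genes with an adjusted p‐value below 0.05, Rbm7 and Srsf3 among them (0.0313 each), with the joint scaling described above.

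**Figure D4:**
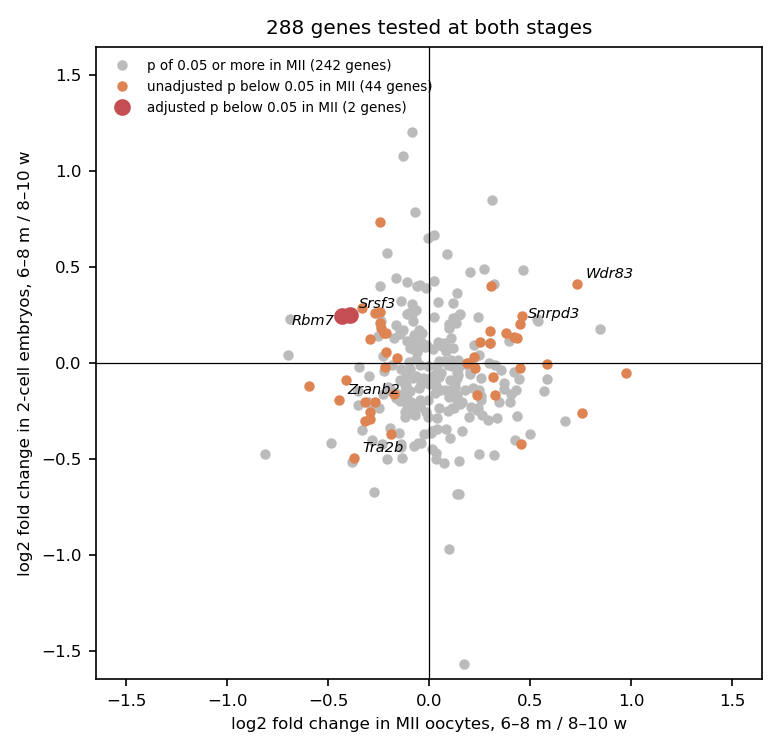
Log2 fold change (6–8 m / 8–10 w) in 2‐cell embryos (y axis) against that in MII oocytes (x axis) for the 288 genes tested at both stages, with a point for each gene coloured by its test in oocytes. The points form no diagonal (r = 0.0242), and Rbm7 and Srsf3 lie to the left of 0 in oocytes and above 0 in embryos.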

How the data were processed

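Sequencing of MII oocytes was by Smart‐Seq2 with paired ends. The authors trimmed reads with Cutadapt, used STAR against mm10, and deposited raw HTSeq counts for 333 genes and 5 tallies of unassigned reads. For 2‐cell embryos, the authors deposited fragment counts per RefSeq transcript together with a scaled signal (FPM), from which only the total fragments were recovered here. The longest transcript represented a gene. The 5 tallies stayed out of the tests (no feature, ambiguous and low alignment quality among them). Reads of low alignment quality were 39.9% ± 1.52 of all reads in 8–10 w and 40.1% ± 1.32 in 6–8 m samples (n = 3 each), so genes with near‐identical copies can be undercounted.

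The test was edgeR's quasi‐likelihood test (version 4.0.16, R 4.3.3), with TMM factors and edgeR's low‐count filter (minimum count 10, minimum total 15), over the 6 samples. Benjamini‐Hochberg adjustment ran over the 292 tested genes. The common biological coefficient of variation was 0.106. Of the 41 genes left out, 4 had no reads, and none had more than 58 reads over the 6 samples. The 2‐cell model held all 6 embryo samples, and the interaction model the 10 samples of both ages. Coordinates, exon lengths and transcripts were from GENCODE vM21. The methods were also tried on simulated data, and the results of those runs are not reported here. Tables and figures were made with pandas 2.3.3 and matplotlib 3.10.9 in Python 3.11.15.

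The named genes are those with an adjusted p‐value below 0.05, the 12 higher and the 12 lower ones with the smallest p‐values, the most abundant member of each group per kilobase of exon, and 7 of the splicing factors named in the paper or its supplements. One gene that this rule names is not reported here. Others (Zcchc8, Mettl3, Mettl14, Lin28a, Sf3b1, Rbm17, Khsrp, Son, the kinases and the other genes counted at an unadjusted p‐value below 0.05) were named after their values were seen, as were the polyadenylation motifs. The groups of stored‐mRNA proteins and Hsp70 chaperones (2 genes tested, none with an unadjusted p‐value below 0.05, and Hspa8 with one without TMM) were added after the files were seen. The comparison, the gene groups and the tests were chosen with earlier results of these data known. The stage and replicate number of a sample were taken from its title, since other labels name another stage. Replicate numbers in titles and file names differ in places, so the block and the pairing check rest on the titles.

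Alternatives were DESeq2 1.42.0, its size factors, no TMM, library sizes from listed genes, no low‐count filter, all 9 oocyte samples, a threshold of 0.1, a block for the replicate number, and each sample left out in turn.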

Additional observations from a re-analysis of the deposited data

How the results depend on the processing

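The number of genes with an adjusted p‐value below 0.05 (2 with edgeR) was 17 with DESeq2 (3 of them higher), 8 without the filter on low counts, 4 with all 9 oocyte samples in the model, 9 at an adjusted p‐value of 0.1 and 0 without TMM. The DESeq2 fit and the edgeR fit without the filter covered 329 genes. It was between 0 and 11 with each sample left out, with 0 in the fit that left out the third 8–10 w sample. Rbm7 had an adjusted p‐value below 0.05 in 11 of 13 alternatives (log2 fold change from −0.53 to −0.33) and Srsf3 in 9 of 13 (−0.44 to −0.29). No gene passed both an adjusted p‐value of 0.05 and a log2 fold change of 1 in any alternative. By fold change alone, 1 gene (Thoc5) passed 1 without TMM, 15 with DESeq2 and 15 without the filter on low counts, and 0 to 4 with a sample left out. The count at an unadjusted p‐value below 0.05 was between 34 and 55, and the number of genes with groups apart between 84 and 112, with a sample left out, since groups of 2 are apart more easily. The number of interactions was between 0 and 13 with a sample left out and 7 with a replicate block on the embryo samples.

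The deviations of same‐numbered samples from their group means correlated across genes with r = 0.0838, 0.141 and 0.123, and each sample correlated best with its own number. Samples with different numbers had r from −0.126 to 0.00845. The main fit left the replicate number out because the first of the 3 values is under 0.1, although all 3 were positive. Whether same‐numbered samples were handled together was not tested. With the replicate number as a block, 1 gene (Rbm7) had an adjusted p‐value below 0.05 and 53 an unadjusted one. In this fit the log2 fold changes of Hspa2 (0.023), Puf60 (−0.0012) and Ptbp1 (−0.0018) took the opposite sign.

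Without TMM the median of all tested genes was 0.13, and with a sample left out it lay between −0.0099 and 0.017. Without TMM, Phf5a (0.068), Srpk1 (0.050), Hspa2 (0.097) and Slu7 (0.094) took the opposite sign. As a share of all reads, reads on listed genes had a difference of −0.0147 percentage points (6–8 m minus 8–10 w), against 0.0462 as a share of the library. With a sample left out, the relative medians of the groups ranged from 0.020 to 0.16 for U1, −0.041 to 0.069 for the Sm and LSm rings, −0.0080 to 0.042 for U2, 0.020 to 0.11 for the tri‐snRNP, 0.084 to 0.22 for the minor spliceosome, −0.039 to 0.017 for the Prp19 complex and catalytic factors, 0.020 to 0.20 for the exon junction and export complexes, −0.097 to 0.0081 for SR proteins, −0.14 to 0.0038 for hnRNPs, −0.15 to −0.043 for alternative splicing regulators, −0.19 to −0.061 for kinases, −0.17 to 0.013 for snRNP assembly, −0.15 to 0.0042 for 3′ end processing and RNA decay and −0.037 to 0.078 for stored‐mRNA proteins. Among the named genes with values near 0, the sign changed with a sample left out for Phf5a (−0.12 to 0.017), Zcrb1 (−0.067 to 0.18), Magoh (−0.038 to 0.15), Hspa2 (−0.20 to 0.33), Puf60 (−0.17 to 0.18), Ptbp1 (−0.22 to 0.13), Slu7 (−0.045 to 0.038), Hnrnpm (−0.015 to 0.28) and Sf1 (−0.059 to 0.33). With all 6 samples and TMM, each of these genes had a log2 fold change smaller than its standard error. The genes of the lowest level had the largest median standard error (0.298), and the part of sequencing depth in this was not tested.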
